A study of Mus musculus with 6 samples.

Results

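The genes described here are 10 genes of iron and heme handling in primary murine pancreatic stellate cells (PSCs): Lcn2, Hmox1, Slc48a1, Slc40a1, Fth1, Ftl1, Ncoa4, Tfrc, Slc11a2 and Steap3. They were chosen by name for their roles, with earlier results of these data known. All 10 of the 10 listed were found among the 49671 genes of the count table and passed the filter on low counts. PSCs are the pancreatic fibroblast precursors that lay down stroma in injury and cancer. They came from C57BL6/J WT mice and were cultured for 120 h in medium set to an extracellular pH (pHe) of 6.6 or 7.4, with 3 biological replicates (A, B and C) in each group. RNA-Seq of poly(A)-enriched RNA gave gene counts, and the comparison asks how gene expression of these cells differs between an acidic surrounding and one at pHe7.4. Both groups were grown on plastic in DMEM/Ham F12 with 10% FCS, which itself supplies iron-loaded transferrin. Medium pH was set by the amount of sodium bicarbonate, so the effects of pH and of bicarbonate cannot be told apart. The cells had been enriched from digested pancreas by their adherence, with no sort described.

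Cells take up transferrin-bound iron through the transferrin receptor Tfrc. In the acidic endosome the iron is reduced by Steap3 and passed into the cytosol by the proton-coupled transporter Slc11a2 (DMT1). Surplus iron is stored in ferritin, a shell of heavy (Fth1) and light (Ftl1) chains, is released from it when the receptor Ncoa4 delivers ferritin to lysosomes, and leaves the cell through ferroportin (Slc40a1). Heme is carried out of endosomes and lysosomes by Slc48a1 (HRG1) and is opened by heme oxygenase 1 (Hmox1), which frees its iron, while lipocalin 2 (Lcn2) is a secreted protein that binds iron-carrying siderophores. Iron regulatory proteins couple several of these mRNAs to cellular iron: when iron is scarce they bind a hairpin, the iron-responsive element. In a 5′ UTR this blocks translation and in a 3′ UTR it protects the mRNA from decay.

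The hairpins are shown because they divide the genes into those with the element in the 5′ UTR and those with it in the 3′ UTR. They were read from GENCODE vM21 transcripts (GRCm38, the build named mm10 in the processing notes) and are printed 5′ to 3′ on the transcript strand. The capitals mark the 6-base loop, CAGTGN. The search asked for 5 bases, an unpaired C, 5 bases, the loop, 5 bases that pair with the upper stem (G with T allowed) and 5 bases of which at least 4 of 5 pair with the lower stem, within an annotated UTR and on the transcript strand only.
Slc40a1, 5′ UTR, chr1:45925466-45925492, minus strand: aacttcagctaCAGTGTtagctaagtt
Fth1, 5′ UTR, chr19:9982733-9982759, plus strand: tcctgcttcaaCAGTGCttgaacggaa
Ftl1, 5′ UTR, chr7:45459780-45459806, minus strand: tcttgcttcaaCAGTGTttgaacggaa
Tfrc, 3′ UTR, chr16:32631220-32631246, plus strand: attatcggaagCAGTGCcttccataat
Tfrc, 3′ UTR, chr16:32631599-32631625, plus strand: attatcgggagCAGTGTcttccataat
Tfrc, 3′ UTR, chr16:32631664-32631690, plus strand: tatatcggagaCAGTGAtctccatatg
Tfrc, 3′ UTR, chr16:32631711-32631737, plus strand: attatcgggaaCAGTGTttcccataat
Slc11a2, 3′ UTR, chr15:100395153-100395180, minus strand: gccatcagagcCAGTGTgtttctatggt
The paired hairpin was found in 4 of the 10 genes and in 15 of the 13632 tested protein-coding genes (0.11%). The Slc11a2 hairpin carries 1 unpaired base on the 3′ side of its upper stem. This looser form was found in 38 of the 13632 genes (0.279%) and in 2 of the 10 genes, Slc11a2 and Slc40a1. In Slc40a1 it lies at the place of the paired hairpin. The Slc11a2 hairpin lies in 1 annotated transcript, and the counts, which are per gene, do not separate transcripts with and without it. Lcn2, Hmox1, Slc48a1, Ncoa4 and Steap3 had no match of either form, which says only that these letters are not in their annotated UTRs.

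The 6 libraries held 28904761 to 38331877 counts, so that 1 count was worth 0.0261 to 0.0346 CPM (counts divided by the library total and scaled to 1000000). Levels are given as normalized CPM, meaning CPM after scaling by trimmed mean of M-values (TMM) factors of 0.927 to 1.09. Differences are log2 fold changes of pHe7.4 over pHe6.6, tested by edgeR (quasi-likelihood) and adjusted by Benjamini-Hochberg across the 15197 genes that entered the test, so a negative value means a higher level at pHe6.6, and a gene passed at an adjusted p under 0.05. Of these genes, 7955 passed (52.3%), 4016 of them higher at pHe6.6 (26.4%) and 3939 higher at pHe7.4 (25.9%). The 3 values of one group did not overlap those of the other for 9598 genes (63.2%), and all genes together had a median log2 fold change of 0.011. Markers of PSCs and fibroblasts were abundant in every library (11 of 12 tested, summed level 37567 to 48900 CPM), although Gfap, a marker of quiescent PSCs, had at most 15 counts in a library. Of these 11, Lum, Dcn, Pdgfra, Des and Pdgfrb were higher at pHe6.6 (log2 fold changes -1.94 for Lum, -1.62 for Dcn, -1.06 for Pdgfra, -0.68 for Des and -0.65 for Pdgfrb), Col1a1 was higher at pHe7.4 (0.97) and 5 did not pass. All 18 macrophage markers were also measured, with summed levels of 632, 746 and 1186 CPM in pHe6.6 A, B and C and 584, 885 and 755 CPM in pHe7.4 A, B and C. Of these 18, 5 passed toward pHe6.6 and 1 toward pHe7.4. B cell markers summed to 296 counts in pHe6.6 C and to no more than 7 in any other library. Duct epithelium markers summed to 73.2 to 265 CPM at pHe6.6 and 435 to 613 CPM at pHe7.4, with 3 of 6 higher at pHe7.4, and of 16 mesothelial markers 10 passed toward pHe7.4 and 2 toward pHe6.6. Endothelial markers summed to 16.5 to 30.4 CPM at pHe6.6 and 42.2 to 53.0 CPM at pHe7.4, with 4 of 6 past the threshold toward pHe7.4 and 1 toward pHe6.6. The part of these cell types in the differences of the 10 genes, and of the other genes named below, was not tested.

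Of the 10 genes, 7 were higher at pHe6.6 (Lcn2, Hmox1, Slc48a1, Slc40a1, Fth1, Ftl1 and Steap3), against 26.4% of all genes tested. Ncoa4 was higher at pHe7.4, the direction of 25.9% of all genes, and Tfrc and Slc11a2 did not pass. The groups did not overlap for 8 of the 10 genes, against 63.2% of all genes. These were the 8 genes that passed, as 52.3% of all genes did. The median log2 fold change over the 10 genes was -0.88. All 7 genes that were higher at pHe6.6 also differed by more than 0.58 on the log2 scale, which 15.0% of all genes did in that direction and 29.8% in either direction. In bulk RNA, fewer cells of a type and less RNA per cell cannot be told apart. The p-values rest on the spread between 3 replicates per group, which the labels call biological.

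**Figure D1:**
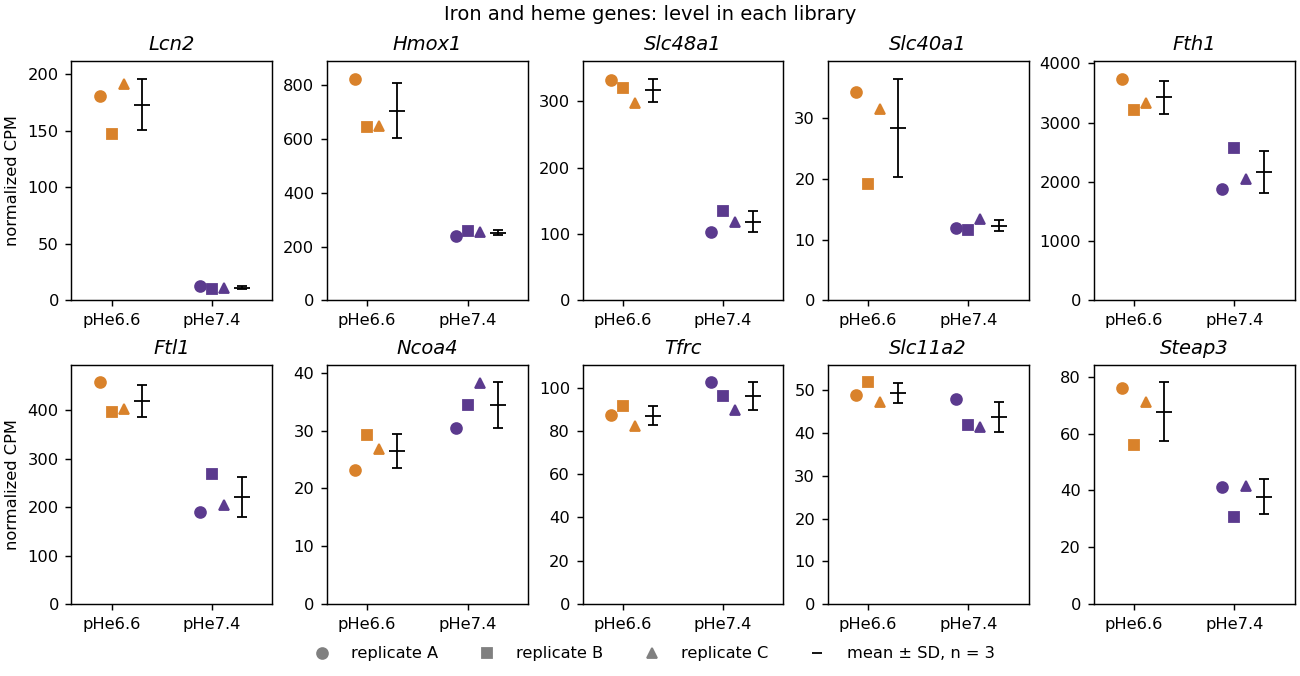
Normalized CPM (vertical axes, from 0, a separate scale for each gene) of the 10 genes in the 3 pHe6.6 libraries (orange) and the 3 pHe7.4 libraries (purple). Symbols are replicates A, B and C and bars are the mean ± SD (n = 3). Lcn2 stands between 148 and 192 CPM at pHe6.6 and between 10.3 and 12.6 CPM at pHe7.4, and only Tfrc and Slc11a2 have overlapping groups.

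Lcn2 (ENSMUSG00000026822, chr2:32384633-32388252, minus strand) showed the widest gap of the 10 genes. Its counts were 5326, 5148 and 6361 in pHe6.6 A, B and C and 502, 324 and 360 in pHe7.4 A, B and C. The normalized levels were 181, 148 and 192 CPM at pHe6.6 and 12.6, 10.3 and 10.6 CPM at pHe7.4. Every pHe6.6 library was thus more than 10-fold above every pHe7.4 library, and within each group the libraries lay close together. The mean levels were 173 ± 22.9 and 11.2 ± 1.27 CPM (SD, n = 3), a 15.4-fold difference (log2 fold change -3.95, SE 0.13, adjusted p = 5.4e-06). This was the 19th of all 15197 log2 fold changes when ordered from the most negative. Lcn2 is also made by neutrophils and by epithelial cells. The 10 neutrophil markers summed to 99 to 131 counts in the pHe6.6 libraries and to at most 121 at pHe7.4, and only Camp and Csf3r of them passed the filter on low counts. Csf3r, the receptor for granulocyte colony-stimulating factor, was higher at pHe6.6 as Lcn2 was, with 36, 61 and 83 counts in pHe6.6 A, B and C and 21, 17 and 14 in pHe7.4 A, B and C (log2 fold change -1.88, adjusted p = 0.0025). Camp did not pass (-0.32, adjusted p = 0.47), and S100a9 and Retnlg had 0 counts in all 3 pHe6.6 libraries. The duct epithelium markers that passed were lower at pHe6.6, where Lcn2 was high. The part of neutrophil or epithelial RNA in the Lcn2 difference was not tested, nor was that of macrophage RNA, whose markers are given above. Slc22a17, the lipocalin 2 receptor, named after its value was seen, averaged 14.3 ± 1.59 CPM in the pHe6.6 libraries and 9.49 ± 0.416 CPM in those at pHe7.4 (log2 fold change -0.59, SE 0.11, adjusted p = 0.0032).

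Hmox1 and Slc48a1, which act on heme from the endosome to its breakdown, were both higher at pHe6.6. Hmox1 (ENSMUSG00000005413, chr8:75093621-75100589, plus strand), the enzyme that opens the heme ring, was at 824, 644 and 649 CPM in pHe6.6 A, B and C and at 241, 259 and 253 CPM in pHe7.4 A, B and C. The lowest pHe6.6 library was more than 2-fold above the highest pHe7.4 library, and replicate A stood above B and C at pHe6.6 only. The means were 705 ± 103 and 251 ± 9.25 CPM (SD, n = 3), a 2.81-fold difference (log2 fold change -1.49, SE 0.11, adjusted p = 4.8e-05). Macrophages express Hmox1 strongly, and the summed macrophage markers were lowest among the pHe6.6 libraries in replicate A (632 CPM), where Hmox1 was highest. Between the groups, Adgre1, Cd68, Itgam, Fcgr1 and Tyrobp of the 18 macrophage markers were higher at pHe6.6, as Hmox1 was (log2 fold changes of -0.33, -0.76, -0.95, -1.24 and -0.78). Cd14 was higher at pHe7.4 (1.32, adjusted p = 0.0046), and the others of the 18 did not pass. The part of macrophage RNA in the Hmox1 difference, and in that of Slc48a1 described next, was not tested. Slc48a1 (ENSMUSG00000081534, chr15:97778520-97792692, plus strand), the lysosomal and endosomal heme exporter, was at 332, 320 and 297 CPM at pHe6.6 and at 103, 135 and 119 CPM at pHe7.4. Its groups were separated by more than the whole range within either of them. The means were 316 ± 17.4 and 119 ± 15.9 CPM, a 2.66-fold difference (log2 fold change -1.41, SE 0.10, adjusted p = 5e-05). The exons of Slc48a1 share 29 bases with Hdac7 on the opposite strand. Hdac7 had 8225 to 9225 counts at pHe6.6 and 3946 to 5292 at pHe7.4, and since the strand setting of the counting is not given in the sources used here, reads from the shared bases cannot be assigned to either gene.

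Ferroportin, the only known cellular exporter of free iron in mammals, varied most between the pHe6.6 libraries. Slc40a1 (ENSMUSG00000025993, chr1:45908068-45926523, minus strand) was at 34.4, 19.2 and 31.6 CPM in pHe6.6 A, B and C and at 11.9, 11.6 and 13.3 CPM in pHe7.4 A, B and C. Replicate B at pHe6.6 lay well below A and C but still above all pHe7.4 libraries, so the groups did not overlap. The means were 28.4 ± 8.10 and 12.3 ± 0.921 CPM (SD, n = 3), a 2.31-fold difference (log2 fold change -1.21, SE 0.21, adjusted p = 0.0034). With single libraries left out the log2 fold change ranged from -1.42 to -1.05 and passed each time. Macrophages also express ferroportin strongly. At pHe6.6 the summed macrophage markers were 632, 746 and 1186 CPM in A, B and C, where Slc40a1 was 34.4, 19.2 and 31.6 CPM. Lyz2, the most abundant of the 18 markers, did not pass (log2 fold change 0.01, adjusted p = 0.99). Adgre1, Cd68, Itgam, Fcgr1 and Tyrobp were higher at pHe6.6, as Slc40a1 was, and Cd14 was higher at pHe7.4. The part of macrophage RNA in the Slc40a1 difference was not tested.

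Both ferritin chains were higher at pHe6.6. Fth1 (ENSMUSG00000024661, chr19:9980598-9985098, plus strand), the heavy chain that oxidizes iron for storage, was at 3740, 3213 and 3331 CPM at pHe6.6 and 1882, 2566 and 2044 CPM at pHe7.4. The lowest pHe6.6 library was above the highest pHe7.4 library, replicate B, and the distance between the groups was modest beside that of Lcn2. The means were 3428 ± 276 and 2164 ± 358 CPM (SD, n = 3), a 1.58-fold difference (log2 fold change -0.66, SE 0.13, adjusted p = 0.0046). Ftl1 (ENSMUSG00000050708, chr7:45457944-45459884, minus strand), the light chain that helps the shell mineralize iron, was at 457, 397 and 403 CPM at pHe6.6 and 190, 268 and 204 CPM at pHe7.4. The libraries ranked in the same order as for Fth1 in both groups. The means were 419 ± 33.3 and 221 ± 41.8 CPM, a 1.90-fold difference (log2 fold change -0.92, SE 0.14, adjusted p = 0.0012). Mouse ferritin has many processed pseudogenes, and how reads shared between copies were counted is uncertain. Among these copies, those named Ftl1-ps, Ftl2-ps or Fth-ps were in the count table, and all 6 libraries together held 179 counts for Ftl1-ps1, 35 for Ftl1-ps2, 26 for Fth-ps3, 1 for Ftl2-ps and 0 for Fth-ps2. In the library with the largest share, the light-chain copies reached 0.97% of the Ftl1 counts. This share cannot show how many shared reads were lost, since reads counted for no copy would be missing from both sides. Ftl1 also overlaps Gm10252 on the other strand, which had 7 to 14 counts per library.

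Ncoa4 (ENSMUSG00000056234, chr14:32159865-32179855, plus strand), the cargo receptor that takes ferritin to the lysosome, was the one gene of the 10 that was higher at pHe7.4. Its level was 23.2, 29.1 and 26.9 CPM in pHe6.6 A, B and C and 30.4, 34.5 and 38.3 CPM in pHe7.4 A, B and C. The groups were separated, but only by the narrow gap between replicate B at pHe6.6 and replicate A at pHe7.4. The means were 26.4 ± 2.97 and 34.4 ± 3.92 CPM (SD, n = 3), a 1.30-fold difference (log2 fold change 0.38, SE 0.11, adjusted p = 0.025). This call was sensitive to leaving out single libraries. It was lost without pHe6.6 A (log2 fold change 0.29, adjusted p = 0.076), pHe6.6 C (0.38, adjusted p = 0.071), pHe7.4 B (0.38, adjusted p = 0.062) or pHe7.4 C (0.30, adjusted p = 0.086).

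The genes for uptake of transferrin iron did not move together. Tfrc (ENSMUSG00000022797, chr16:32608920-32632794, plus strand), the transferrin receptor, was at 87.2, 91.4 and 82.4 CPM at pHe6.6 and 102, 96.0 and 89.7 CPM at pHe7.4. Replicate B at pHe6.6 exceeded replicate C at pHe7.4, so the groups overlapped. The log2 fold change was 0.14, with a 95% interval of -0.02 to 0.31 (adjusted p = 0.13). Slc11a2 (ENSMUSG00000023030, chr15:100387898-100425072, minus strand), which carries iron out of the endosome, was at 48.8, 51.8 and 47.2 CPM at pHe6.6 and 47.9, 41.9 and 41.3 CPM at pHe7.4. Replicate A at pHe7.4 lay within the pHe6.6 range. Slc11a2 exons overlap those of Gm5475 on the other strand, which had at most 2 counts in a library. The log2 fold change was -0.17, with an interval of -0.35 to 0.01 (adjusted p = 0.10), and without pHe7.4 A it passed (log2 fold change -0.24, adjusted p = 0.044). Differences as large as the outer bounds of these intervals remain possible, and a p that misses the threshold does not show equal levels.

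Steap3 (ENSMUSG00000026389, chr1:120190757-120272705, minus strand), the endosomal ferrireductase, differed from its partners in the endosome. It was at 75.8, 56.0 and 71.0 CPM at pHe6.6 and at 41.1, 30.8 and 41.6 CPM at pHe7.4. Replicate B was the lowest library of each group, and the groups did not overlap. The means were 67.6 ± 10.4 and 37.8 ± 6.11 CPM (SD, n = 3), a 1.79-fold difference (log2 fold change -0.84, SE 0.15, adjusted p = 0.0036).

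**Figure D2:**
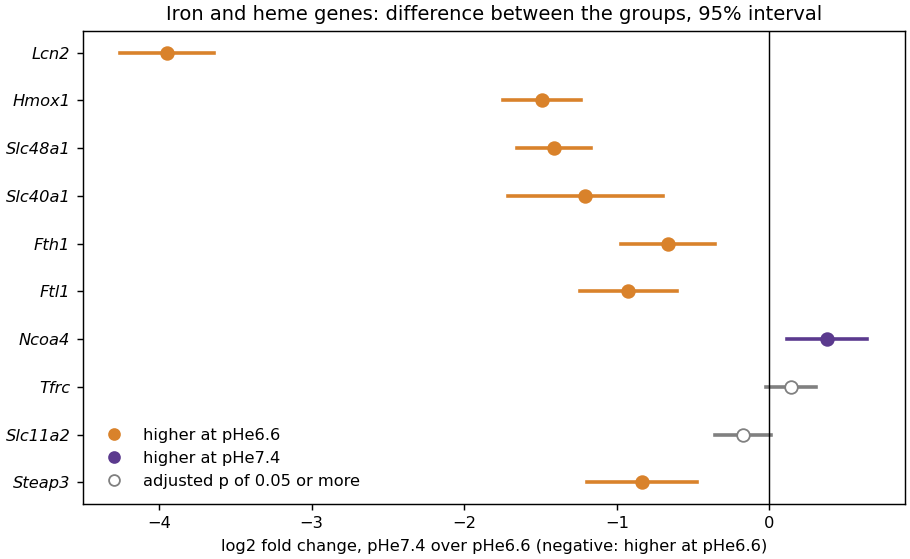
Log2 fold change of pHe7.4 over pHe6.6 (horizontal axis) for each of the 10 genes with its 95% interval (line). Orange marks genes higher at pHe6.6, purple a gene higher at pHe7.4 and open grey circles an adjusted p of 0.05 or more. The values run from -3.95 for Lcn2 to 0.38 for Ncoa4, and the intervals of Tfrc and Slc11a2 include 0.

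Levels can be compared between genes only per length, here as normalized CPM divided by the length of the principal transcript in kilobases (RPKM). Fth1 was the most abundant of the 10 in both groups, at 3690 RPKM at pHe6.6 and 2329 RPKM at pHe7.4. At pHe6.6 it was followed by Hmox1 (450 RPKM) and Ftl1 (433 RPKM), whose libraries overlapped, and then by Lcn2 (189 RPKM) and Slc48a1 (125 RPKM). The remaining genes were far lower, with Tfrc (17.8 RPKM) and Slc11a2 (16.3 RPKM) overlapping, then Steap3 (13.1 RPKM), and Slc40a1 (8.43 RPKM) and Ncoa4 (6.50 RPKM) again overlapping. At pHe7.4 the order was Fth1, Ftl1 (228 RPKM), Hmox1 (160 RPKM), Slc48a1 (46.9 RPKM) and Tfrc (19.6 RPKM), none of which overlapped its neighbour. Slc11a2 (14.5 RPKM) came next and overlapped Lcn2 (12.2 RPKM), which had been the fourth most abundant at pHe6.6. Ncoa4 (8.46 RPKM) and Steap3 (7.33 RPKM) overlapped, and Slc40a1 was the lowest at 3.65 RPKM. The places of Fth1 and Ftl1 in these orders hold only for reads as counted. How reads shared with ferritin pseudogenes were counted is uncertain.

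Set beside the hairpins printed above, the 3 genes with an iron-responsive element in the 5′ UTR (Slc40a1, Fth1 and Ftl1) were all higher at pHe6.6, with log2 fold changes of -1.21, -0.66 and -0.92. The 2 genes with it in the 3′ UTR (Tfrc and Slc11a2) did not pass, with 0.14 and -0.17. Over all genes tested, 26.4% were higher at pHe6.6 and 52.3% passed in either direction, and with so few genes nothing is read from the position of the element. These are RNA levels, and translation, which the 5′ UTR element acts on, was not measured. Ratios within a library do not depend on the scaling between libraries, and 8 of them were computed. With 3 libraries against 3, the exact two-sided permutation test cannot give a p below 0.1.

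Tfrc had 23.3, 28.4 and 24.7 counts per 1000 Fth1 counts in pHe6.6 A, B and C and 54.4, 37.4 and 43.9 in pHe7.4 A, B and C. The groups did not overlap and the means were 25.5 ± 2.65 and 45.2 ± 8.56 (SD, n = 3), a 1.77-fold higher ratio at pHe7.4 (exact permutation p = 0.1, 0.114 adjusted over the 8 ratios). For Ncoa4 per 1000 Fth1 counts the means were 7.78 ± 1.45 and 16.1 ± 2.65, a 2.07-fold higher ratio at pHe7.4 without overlap (exact permutation p = 0.1). The receptor that removes ferritin was lower relative to ferritin heavy chain RNA at pHe6.6 in all 3 libraries. The ratio of Fth1 to Ftl1, each per transcript length, was the tightest within groups. It was 8.52, 8.44 and 8.62 at pHe6.6 and 10.3, 9.96 and 10.4 at pHe7.4 (means 8.52 ± 0.089 and 10.2 ± 0.242, exact permutation p = 0.1). Light chain RNA thus took a larger share of the counted ferritin RNA at pHe6.6. The size of this ratio may depend on how reads shared with pseudogenes were counted, which is uncertain. Slc11a2 per 1000 Tfrc counts was also tight, at 559, 566 and 574 at pHe6.6 and 468, 437 and 461 at pHe7.4 (exact permutation p = 0.1), although neither gene passed on its own. Steap3 per 1000 Tfrc counts had means of 781 ± 146 and 395 ± 72.0, again without overlap. Tfrc per 1000 Slc40a1 counts, an uptake gene over the exporter, was 3302 ± 1267 at pHe6.6 and 7856 ± 993 at pHe7.4 (exact permutation p = 0.1). Hmox1 per 1000 Fth1 counts was 205 ± 13.5 and 118 ± 14.6 without overlap, whereas Slc40a1 per 1000 Fth1 counts overlapped between the groups, with means of 8.22 ± 1.95 and 5.80 ± 1.11 (exact permutation p = 0.3).

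**Figure D3:**
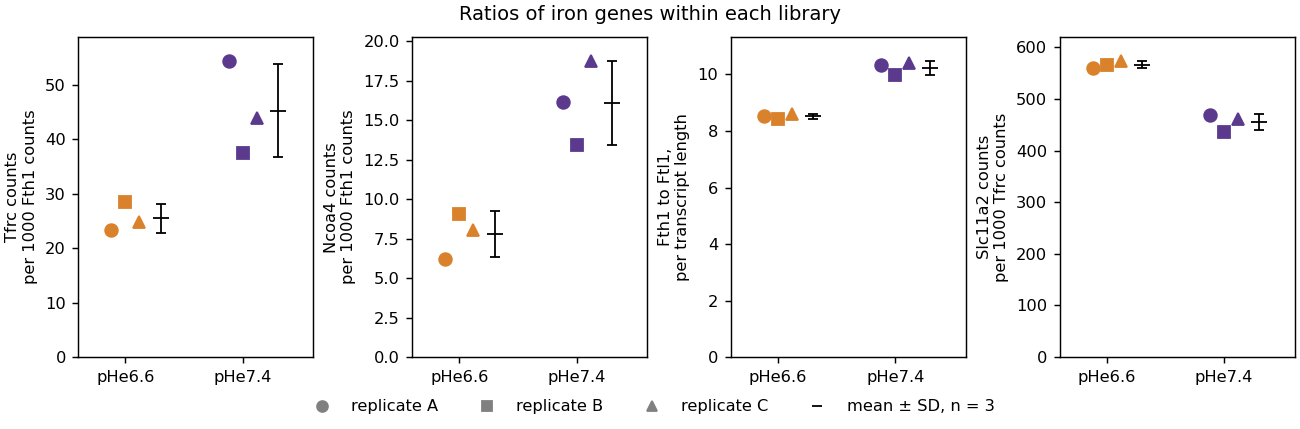
Ratios of counts between iron genes within each library (vertical axes, from 0) for the 3 pHe6.6 libraries (orange) and the 3 pHe7.4 libraries (purple). Symbols are replicates A, B and C and bars the mean ± SD (n = 3). None of the 4 ratios shown overlaps between the groups, and Slc11a2 per 1000 Tfrc counts lies at 559 to 574 at pHe6.6 and 437 to 468 at pHe7.4.

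The wider iron and heme network showed no common direction. Of 92 further genes listed by role, 85 were tested, and 24 were higher at pHe6.6, 24 were higher at pHe7.4 and 37 did not pass. Their median log2 fold change was 0.055, against 0.011 over all genes, and 56.5% of them passed, against 52.3% of all genes.

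Of 16 tested genes for iron uptake, reduction and oxidation, 7 passed toward pHe6.6 and 4 toward pHe7.4. The largest difference among these 7 was that of ceruloplasmin (Cp), the copper ferroxidase that oxidizes iron leaving through ferroportin. Cp was at 724, 494 and 697 CPM in pHe6.6 A, B and C and 107, 88.4 and 113 CPM in pHe7.4 A, B and C (log2 fold change -2.63, SE 0.17, adjusted p = 4.4e-05). Replicate B was again the lowest of its group in both, as for Slc40a1 and Steap3, and the groups lay far apart. Mcoln1, a lysosomal channel that conducts iron, was also higher at pHe6.6 (-0.65, adjusted p = 0.0004). Steap1, a member of the Steap3 family, was higher at pHe7.4 (0.64, adjusted p = 0.0025), as was the zinc and iron importer Slc39a8 (0.46, adjusted p = 0.013). Hfe, Steap2, Trf, Steap4, Heph and Lrp2 were named after their values were seen. Hfe, which binds the transferrin receptor (-0.80, adjusted p = 0.0019), and Steap2 (-0.49, adjusted p = 0.00062) were higher at pHe6.6. Transferrin itself (Trf) did not pass (-1.01, adjusted p = 0.11). Calls for the reductase Steap4 (-1.32, adjusted p = 0.024), the ferroxidase hephaestin (Heph, -0.36, adjusted p = 0.046) and the endocytic receptor Lrp2 (2.18, adjusted p = 0.031) were each lost when single libraries were left out. For Steap4 these were pHe6.6 C, pHe7.4 A and pHe7.4 B (adjusted p = 0.072, 0.084 and 0.067). For Lrp2 they were pHe6.6 C, pHe7.4 B and pHe7.4 C (adjusted p = 0.072, 0.072 and 0.080), and for Heph pHe6.6 A, pHe6.6 B, pHe7.4 A and pHe7.4 C (adjusted p = 0.11, 0.11, 0.14 and 0.14).

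Of the 7 genes of the hepcidin axis, which controls ferroportin at the protein level from the liver, 4 were below the filter, Hamp and Hamp2 for hepcidin itself among them. Bmp6, which induces hepcidin in the liver, was at 34.5, 50.9 and 28.02 CPM in pHe6.6 A, B and C and 15.7, 21.2 and 16.2 CPM at pHe7.4 (log2 fold change -1.10, adjusted p = 0.0089). Erfe, which encodes a hormone that lowers hepcidin, was at 0.92, 5.19 and 2.89 CPM at pHe6.6 and 12.7, 9.28 and 10.4 CPM at pHe7.4 (log2 fold change 1.84, adjusted p = 0.029). Its call was lost without pHe6.6 C, pHe7.4 A, pHe7.4 B or pHe7.4 C (adjusted p = 0.094, 0.085, 0.057 and 0.064), and without pHe6.6 B its log2 fold change was 2.49 (adjusted p = 0.0049). Neo1, a co-receptor of this axis, differed little (0.25, adjusted p = 0.041) and was lost without every library but pHe7.4 B (adjusted p = 0.13, 0.080, 0.081, 0.075 and 0.12 without pHe6.6 A, B and C and pHe7.4 A and C).

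Among 9 iron regulatory proteins and iron chaperones, 2 passed toward pHe6.6 and 5 toward pHe7.4, all by small amounts. The 2 RNA-binding proteins that read the hairpins moved in opposite directions. Aco1 (IRP1), which becomes the cytosolic aconitase when it carries an iron-sulfur cluster, averaged 126 ± 13.0 CPM in the pHe6.6 libraries and 103 ± 6.33 CPM in those at pHe7.4 (log2 fold change -0.29, adjusted p = 0.028). Ireb2 (IRP2), named after its value was seen, was at 89.7 ± 2.72 and 106 ± 8.37 CPM (0.24, adjusted p = 0.024). The Aco1 call was lost without pHe6.6 A, pHe6.6 C, pHe7.4 B or pHe7.4 C (adjusted p = 0.075, 0.075, 0.079 and 0.067), and the Ireb2 call without pHe6.6 A, pHe6.6 C, pHe7.4 A or pHe7.4 C (adjusted p = 0.077, 0.095, 0.075 and 0.080). Fbxl5, the iron-sensing ubiquitin ligase subunit that removes IRP2, was higher at pHe6.6 (-0.34, adjusted p = 0.0065). The cytosolic iron chaperone Pcbp1, which delivers iron to ferritin, averaged 215 ± 8.14 CPM in the acidic and 277 ± 8.65 CPM in the pHe7.4 libraries (0.36, adjusted p = 0.0022), opposite in direction to both ferritin chains, and Bola2, which works with it, was likewise higher at pHe7.4 (0.54, adjusted p = 0.012).

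Heme synthesis showed 3 of 12 tested genes higher at each pH. Alas1, which catalyses the rate-limiting step, was at 206, 159 and 181 CPM at pHe6.6 and 164, 172 and 171 CPM at pHe7.4 and did not pass (log2 fold change -0.11, adjusted p = 0.37). Its pHe6.6 libraries surrounded all 3 pHe7.4 libraries. The late enzymes Fech, which inserts iron into the ring, and Cpox were both higher at pHe6.6 (-0.52, adjusted p = 0.00044, and -0.52, adjusted p = 0.00086). Uros, an earlier enzyme of the pathway, was higher at pHe7.4 (1.04, adjusted p = 0.00041), as was the mitochondrial glycine importer Slc25a38 (0.90, adjusted p = 0.00073).

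Of 11 genes for heme breakdown, transport and sensing, 2 were higher at each pH and 7 did not pass. Blvrb, a biliverdin reductase, was at 66.5, 57.9 and 56.9 CPM at pHe6.6 and 15.5, 20.9 and 17.5 CPM at pHe7.4. Its log2 fold change was -1.75 (SE 0.12, adjusted p = 4e-05), a gap of the same order as that of Hmox1. Hmox2, the constitutive heme oxygenase, and Blvra, the other biliverdin reductase, both named after their values were seen, did not pass (0.15, adjusted p = 0.12, and -0.23, adjusted p = 0.13). Blvra passed without pHe6.6 B (-0.34, adjusted p = 0.031). Lrp1, a receptor for hemopexin-bound heme and many other ligands, was at 3513 ± 265 and 2259 ± 520 CPM (-0.64, adjusted p = 0.016). Slc46a1, a proton-coupled folate and heme transporter, was higher at pHe7.4 (1.03, adjusted p = 0.00088). Bach1, the heme-sensing repressor of Hmox1 and of the ferritin genes, was at 51.2, 54.99 and 61.1 CPM at pHe6.6 and 73.6, 60.8 and 83.4 CPM at pHe7.4, with overlapping groups (0.38, adjusted p = 0.033). Its call was lost without pHe6.6 A, pHe6.6 B, pHe7.4 A or pHe7.4 C (adjusted p = 0.092, 0.073, 0.082 and 0.098).

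Iron-sulfur cluster assembly split evenly in mitochondria, where 6 of 21 tested genes were higher at each pH. The transporter Abcb8 was higher at pHe7.4 (log2 fold change 0.72, adjusted p = 0.00088). The cysteine desulfurase Nfs1 (-0.42, adjusted p = 0.0016) and the ferredoxin Fdx1 (-0.69, adjusted p = 0.0022), which supply sulfur and electrons to the assembly, were higher at pHe6.6. Hspa9, a chaperone of cluster transfer, was at 406 ± 26.1 and 501 ± 35.8 CPM (0.30, adjusted p = 0.017), and its call was lost without pHe6.6 A, pHe6.6 C or pHe7.4 A (adjusted p = 0.061, 0.076 and 0.059). In the cytosolic machinery 6 of 9 genes did not pass, the targeting factor Ciao1 among them (0.06, adjusted p = 0.50). Ciao2b was higher at pHe6.6 (-0.35, adjusted p = 0.0075). Ciapin1 (0.32, adjusted p = 0.012) and Ciao2a (0.25, adjusted p = 0.038) were higher at pHe7.4. Ciapin1 was lost without pHe6.6 C (adjusted p = 0.051) and Ciao2a without pHe6.6 B, pHe6.6 C, pHe7.4 A or pHe7.4 B (adjusted p = 0.099, 0.085, 0.082 and 0.092).

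Of 4 other transcripts listed for an iron-responsive element, 2 were higher at pHe6.6, Epas1 among them. Epas1, the hypoxia-inducible factor HIF-2α, was at 508, 416 and 469 CPM at pHe6.6 and 134, 137 and 175 CPM at pHe7.4 (log2 fold change -1.64, SE 0.13, adjusted p = 5.9e-05). Its 5′ UTR hairpin is shown for comparison with those of the ferritins, on GRCm38 and the plus strand, with the loop in capitals, and has the unpaired base seen in Slc11a2.
Epas1, 5′ UTR, chr17:86753769-86753796: acaatcctcggCAGTGTcctgagactgt
In the same list, Cdc14a and Cdc42bpa did not pass. Neither had a match of either form in its mouse UTRs, and they were listed because a 3′ UTR element is known for these genes in humans. Among the further genes, Iba57 also had a match of the looser form, in its 3′ UTR. Alas2, which was below the filter, had one of the paired form in its 5′ UTR.

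**Figure D4:**
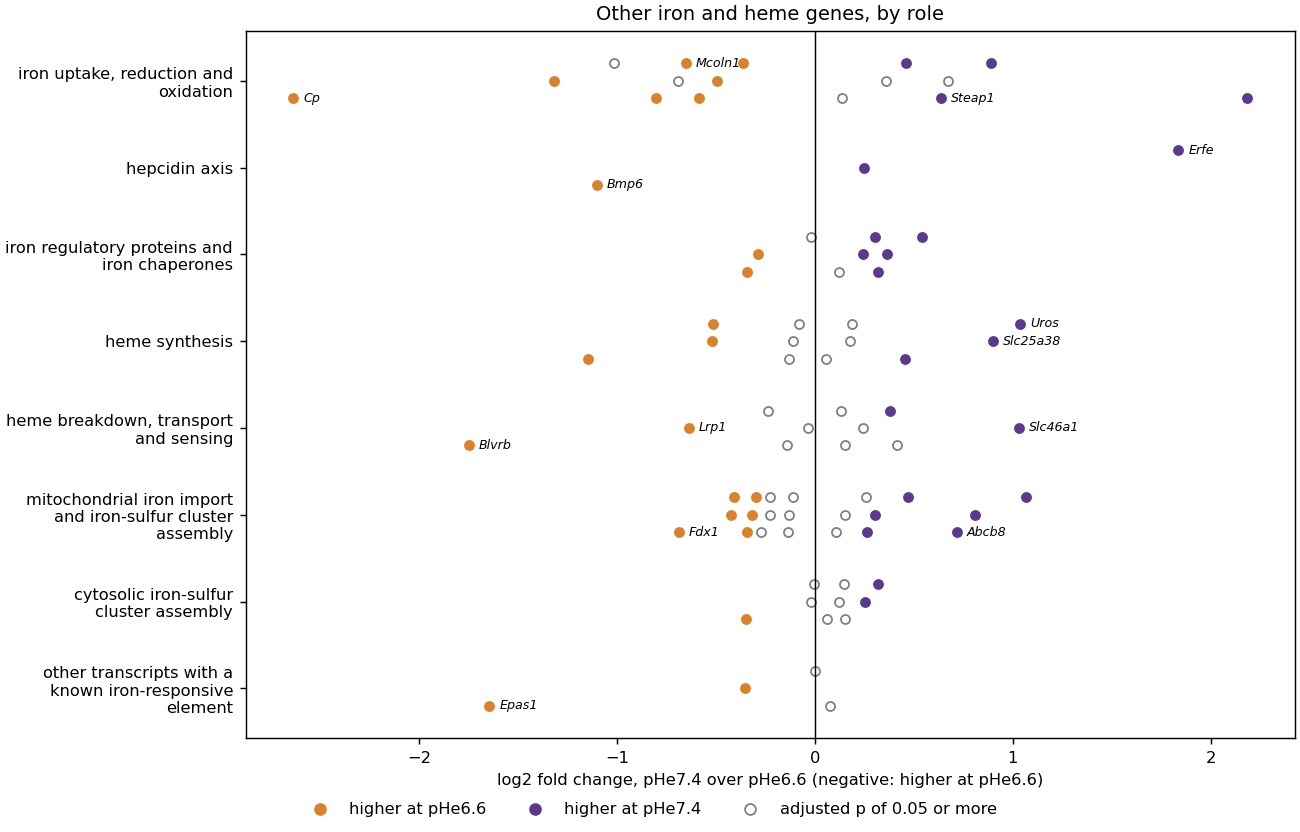
Log2 fold change of pHe7.4 over pHe6.6 (horizontal axis) for the 85 tested further iron and heme genes, arranged by role (vertical axis, with points spread within a role for legibility). Orange points passed and were higher at pHe6.6 (24 genes), purple points passed and were higher at pHe7.4 (24 genes), and open grey circles did not pass (37 genes).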

How the data were processed

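RNA from PSCs was sequenced after NEBNext Ultra II directional library preparation with poly(A) enrichment. The deposited values are raw gene counts that the authors made with HISAT2 2.2.1 and featureCounts 2.0.1 on mm10. The annotation release and the strand setting are not given in the sources used here. The authors' comparison table, made with limma 3.50.1, gave only its gene symbols to join the genes to the count table. Its other columns hold the authors' fold changes, average expression and p-values and were not used. Of 49671 gene identifiers, 49326 matched a GENCODE vM21 symbol.

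Counts were tested with edgeR 4.0.16 in R 4.3.3 (robust quasi-likelihood fit, TMM factors, a minimum of 0.5 CPM in 2 or more libraries, Benjamini-Hochberg adjustment, threshold 0.05), with a common biological coefficient of variation of 0.14. The SE of a log2 fold change is its size divided by the square root of F. Ratios within libraries were compared by exact permutation, with Benjamini-Hochberg adjustment over the ratios by scipy 1.17.1. Alternatives were DESeq2 1.42.0 and limma-voom (limma 3.58.1), other size factors and filters, a fold threshold of 0.58, the replicate letter as a block, and leaving out each library. The edgeR test was also run on simulated counts, and the other tests were not.

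The 10 genes, the lists of other genes and the markers were chosen with earlier results of these data known. Besides the 10 genes, the text names in each role for either direction the 2 genes of lowest adjusted p, the gene with the highest mean CPM, and ferritin pseudogenes. Others are named as chosen after their values were seen. Some genes that this rule selects are not reported here.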

Additional observations from a re-analysis of the deposited data

How the results depend on the processing

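For the 10 genes, 125 of 130 recomputed calls over 13 alternatives each were the same, 4 were lost (all Ncoa4), 1 was gained (Slc11a2) and none turned direction. The count of the 10 past the threshold ranged from 7 to 9 with single libraries left out, against 8 in all, was 7 with an absolute log2 fold change over 0.58 required, and was 8 with every other setting. Of the 85 further genes, 35 to 47 passed with single libraries left out, against 48, and of all genes 6273 to 7764, against 7955. With the fold threshold, which can only remove calls, 21 of the further genes passed (11 toward pHe6.6 and 10 toward pHe7.4), and 4522 of all genes (2284 and 2238). The 39 other named genes kept 457 of 507 calls, with 48 lost and 2 gained in 14 genes, among the gained that of Trf under DESeq2 (adjusted p = 0.024). Without the filter on low counts Bmp6 (adjusted p = 0.051), Erfe (0.12), Neo1 (0.050), Steap4 (0.090) and Lrp2 (0.12) were lost, and Heph (0.073) was lost with upper-quartile factors. All genes together had a median log2 fold change of 0.011 under TMM, 0.0087 under DESeq2 size factors and 0.043 under upper-quartile factors. With the replicate block 8 of the 10 genes, 45 of the further genes and 7408 of all genes passed, and Erfe (adjusted p = 0.054), Ireb2 (0.052) and Ciao2a (0.073) were lost. The deviations of libraries with the same letter correlated at -0.063 for A, -0.00037 for B and 0.23 for C, so the letters were not taken to pair the libraries. A level of 1 count, 0.0261 to 0.0346 CPM, limits none of the 10 genes, whose lowest count in any library was 324. Precision is limited by 3 replicates per group.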
